A study of Mus musculus with 18 samples.

Results

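Treg were compared with Tconv of the thymus, that is, CD4 T cells with and without the surface receptor CD25, across all genes of the array. The comparison rests on 6 of the 18 Affymetrix M430v2 arrays of the study, which were chosen by their labels as the 3 thymic Treg and the 3 thymic Tconv arrays. Both groups were from BDC2.5/NOD mice aged 4 to 6 weeks, whose T cells carry a transgenic antigen receptor, and each array held the pooled cells of 3 to 6 mice. CD8a cells were first depleted with magnetic beads, and the rest was sorted as B220-, CD11b-, CD8a- and CD4+, then CD25+ (Treg) or CD25- (Tconv). The sort named neither Foxp3 nor, in the thymus, the antigen receptor. The other 12 arrays held the same 2 populations from lymph nodes of C57BL/6 mice of 32 to 36 weeks and from epididymal fat of male C57Bl/6 mice of 25 to 35 weeks, where TCRb+ was added to the sort. Sex was stated for the fat mice only.

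Treg are CD4 T cells that restrain other T cells and depend on the transcription factor Foxp3. They arise in the thymus from thymocytes whose antigen receptor binds self peptides strongly and that then receive signals from interleukin-2 (IL-2) through CD25. Thymocytes pass from an immature stage with both CD4 and CD8, through a newly made single-positive stage, to a mature stage that regains exit receptors and leaves for the blood. Treg that have already been in the periphery can also return to the thymus, and such cells carry transcripts of effector and memory cells.

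Values are deposited RMA intensities, which measure brightness on a linear scale, and differences are log2 values of Treg over Tconv, given with the standard error of the fit, with 3 arrays per group. Dim signals were filtered out, which left 12821 of 18193 genes for the test, and a gene was called at an adjusted p under 0.05 (limma). Errors and p-values come from a fit of the thymus, lymph node and fat arrays together, in which all groups share the spread of a gene. They measure the spread between pools of mice, not between mice, and not that of the thymus arrays alone. Of 85 genes named here that were called, 63 kept their call in a fit of only the thymus arrays. The sort itself set Il2ra, which encodes CD25, and Cd4, Cd8a, Itgam (CD11b) and Ptprc (the parent of B220) were part of the sort as well, so these are no result. Cd4 measured 346, 457 and 403 in Treg, against 481, 867 and 571 in Tconv and was called lower with the replicate block only (adjusted p = 0.116 without and 0.0187 with it). The T cell receptor subunit gene Cd3e was bright on all 6 arrays, at 995, 1430 and 689 in Treg, against 1441, 2403 and 985 in Tconv. Dntt, which immature thymocytes express, averaged 2367 in thymic Treg, 1519 in thymic Tconv, 99.8 in lymph node Treg and 319.7 in lymph node Tconv. The first principal component of the 6 thymus arrays carried 48.2% of their variance and placed Treg at -35.0, -24.7 and -11.1 and Tconv at 19.6, 26.0 and 25.2, so Treg replicate 3 lay nearest to Tconv. Without that array 976 genes were called (7.61%), of which 5.0% of all genes were higher and 2.61% lower, and results that turn on it are given without it as well.

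In the thymus 638 genes were called (4.98%), of which 411 were higher in Treg (3.21%) and 227 lower (1.77%). At least 2-fold changes were more often upward: 263 higher (2.05%) and 77 lower genes (0.601%) reached that size. The 3 Treg arrays lay wholly above or below the 3 Tconv arrays in 19.3% of all genes. This 19.3%, and the 3.21% higher and 1.77% lower, are the shares to hold against the list counts and non-overlaps below. Arrays that share a replicate number moved together, and a fit with that number as a block called 1528 genes (11.9%), of which 834 were higher (6.5%) and 694 lower (5.41%). Without the block, 1058 genes were higher and 862 lower at an unadjusted p under 0.05. The plot of values by array shows 6 genes of each of 4 programmes.

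**Figure D1:**
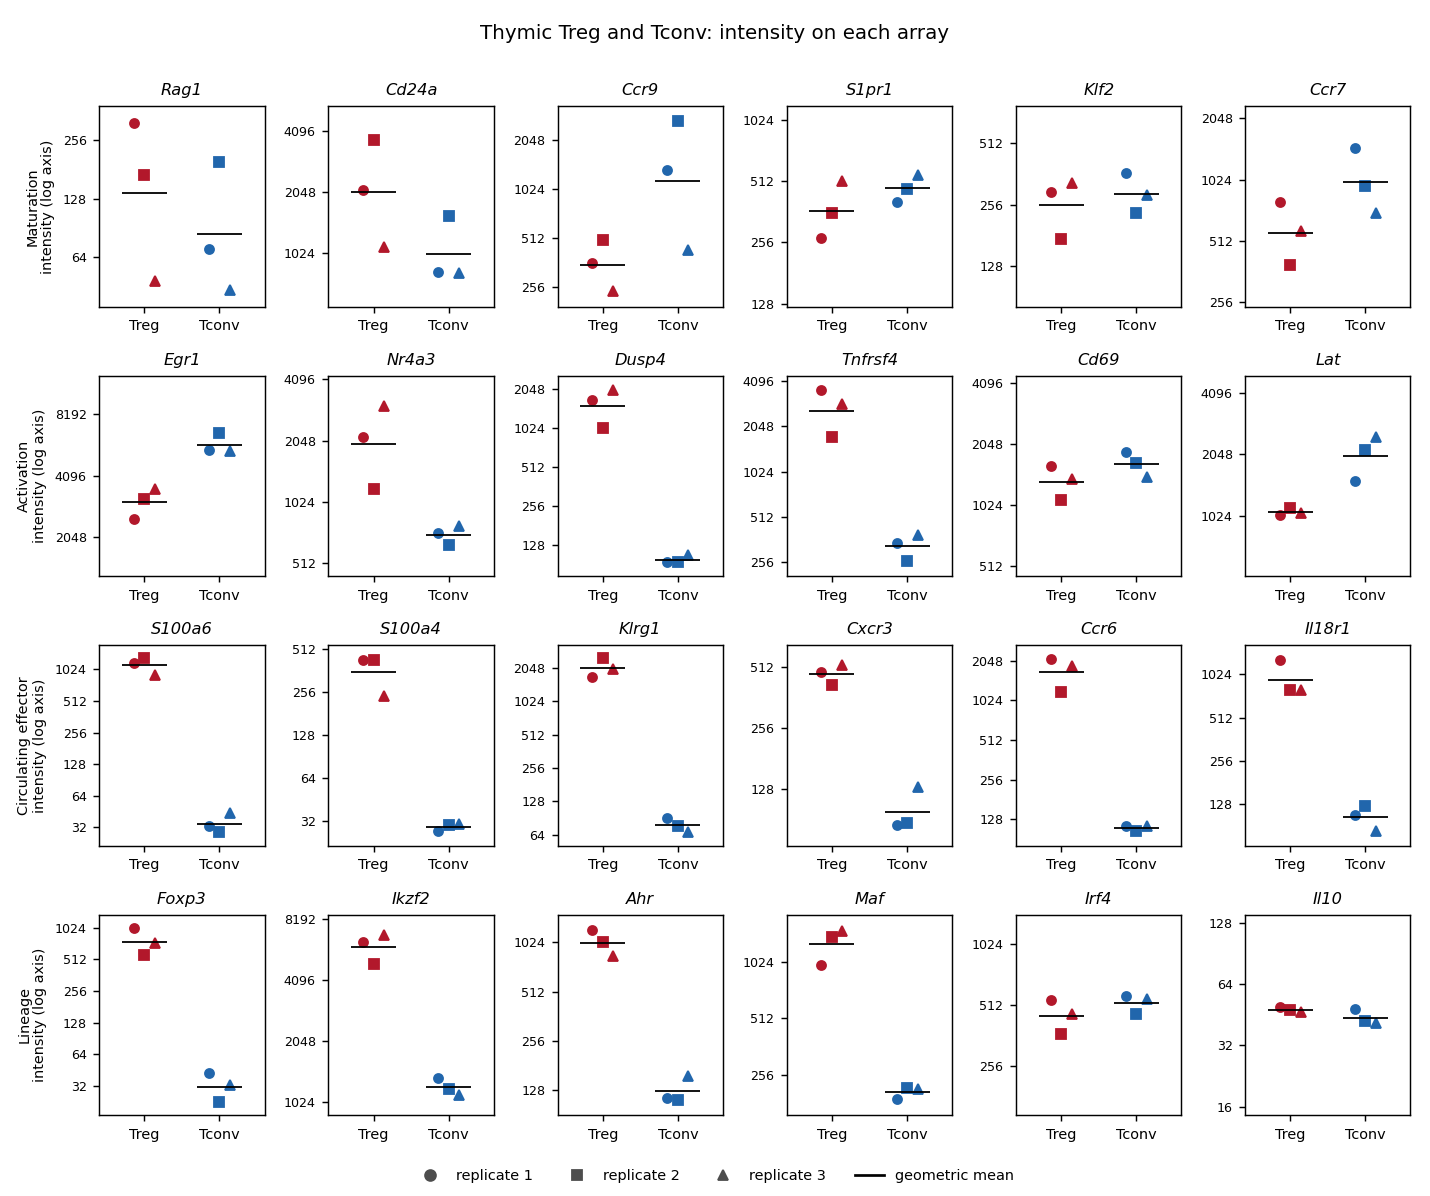
Intensity on a log axis of 24 genes on each of the 6 thymus arrays, with Treg left and Tconv right in each panel and a row of panels for each programme. Points are arrays, with a shape for each replicate number, and the bar is the geometric mean of the group. The Foxp3, Klrg1 and S100a6 points part the groups by at least 13.1-fold, while the Rag1 points of Treg, at 48.4 to 315, overlap those of Tconv, at 43.1 to 198.

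The lineage genes of Treg set the 2 populations apart. Of the 27 measured members of a list of Treg identity genes, 25 were higher in Treg and 0 lower, with a median difference of 2.30 on the log2 scale, where the median of all genes was -0.02. The list, like all lists here, was chosen with earlier results of these data known, so its share is a description and no independent test. The list includes Il2ra, which the sort set. Of the other 26 members 24 were higher and 0 lower, with a median of 2.23. Foxp3 measured 1024, 559.5 and 737 in Treg, against 42.7, 22.6 and 32.6 in Tconv. The lowest Treg array was 13.1-fold brighter than the highest Tconv array, for a difference of 4.57 ± 0.28 (adjusted p = 1.43e-08). Ctla4, which encodes an inhibitory receptor that takes costimulatory ligands from antigen-presenting cells, measured 2750, 1412 and 3175 in Treg, against 114, 81.3 and 100.2 in Tconv (4.57 ± 0.32, adjusted p = 7.90e-08). In these bulk samples, a different number of cells of a type and a different amount of RNA per cell cannot be told apart.

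Itgb8, an integrin subunit that takes part in activating latent TGF-beta, was near the bottom of the scale in Tconv. It measured 173, 242 and 348 in Treg, against 8.13, 8.09 and 8.48 in Tconv (4.89 ± 0.37). Socs2, a brake on cytokine signalling, measured 853, 587 and 393 in Treg, against 33.1, 22.7 and 17.7 in Tconv (4.62 ± 0.25). Plagl1, a zinc finger factor, measured 906, 658 and 1995 in Treg, against 59.9, 49.0 and 82.8 in Tconv (4.08 ± 0.44). Itgb8, Socs2 and Plagl1 stood higher in each Treg array than in any Tconv array. Other probe sets of Plagl1 gave only -0.07 to 0.21 and those of Socs2 0.26 to 5.31. Penk, the precursor of enkephalin, was higher by 2.99 ± 0.40, and Tnfrsf18, which encodes the costimulatory receptor GITR, by 1.60 ± 0.21. The other 2 measured members did not pass the test, and at an unadjusted p under 0.05 all 26 members besides Il2ra were higher and 0 lower (limma).

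Of 39 transcription factors of T cell lineages, 12 were higher in Treg and 0 lower, and their median was 0.18. With the replicate block 15 were higher and 2 lower. Ikzf2, which encodes Helios, a partner factor of Foxp3 in thymic Treg, measured 6274, 4898 and 6823 in Treg, against 1345, 1182 and 1112 in Tconv (2.30 ± 0.28, adjusted p = 4.18e-05). The aryl hydrocarbon receptor gene Ahr measured 1220, 1028 and 845 in Treg, against 115, 112 and 157 in Tconv (3.01 ± 0.25), although its other probe set gave 0.10. Maf, a regulator of IL-10 and of helper subsets, measured 978, 1376 and 1492 in Treg, against 191, 218 and 217 in Tconv (2.60 ± 0.29), with its other probe sets between 0.06 and 2.99. Eomes, known from cytotoxic and memory T cells, measured 240.5, 202 and 226 in Treg, against 66.1, 60.9 and 60.9 in Tconv (1.83 ± 0.29), so each Treg array exceeded each Tconv array by at least 3.06-fold. Irf4, which antigen receptor signals induce, measured 546, 371 and 461 in Treg, against 569, 465 and 551 in Tconv (-0.21 ± 0.26, adjusted p = 0.814), and these ranges overlapped. A further pair of factors that were higher were named after their values were seen, Rora by 1.70 ± 0.26 and Bhlhe40 at 403, 498 and 556 in Treg, against 75.9, 90.0 and 91.2 in Tconv.

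Cytokine receptors and their STAT pathway changed in both directions, 12 of 40 genes higher, Il2ra included, and 2 lower, and 15 and 3 with the block. Il18r1, the chain of the IL-18 receptor that binds the cytokine, measured 1299, 800.4 and 793 in Treg, against 107, 124 and 82.7 in Tconv (3.18 ± 0.23, adjusted p = 1.30e-07). Il1r2, a decoy receptor that captures IL-1, measured 206, 100.1 and 103 in Treg, against 25.7, 29.3 and 26.4 in Tconv (2.25 ± 0.32). Cish, a target and inhibitor of the STAT5 pathway below the IL-2 receptor (named after its values were seen), measured 1565, 1146 and 1040 in Treg, against 258, 238 and 285 in Tconv (2.24 ± 0.17). In each of the 3 genes the groups lay apart by at least 3.42-fold. Il1rl2, the receptor of IL-36, was lower in Treg, at 46.7, 73.6 and 82.4 in Treg, against 209.6, 322 and 439 in Tconv (-2.24 ± 0.29). Tgfbr2, a chain of the TGF-beta receptor, was also lower, at 1412, 1234 and 1907 in Treg, against 2838, 2234 and 3483 in Tconv (-0.91 ± 0.20). The other probe sets of both did not show this, with 0.19 for Il1rl2 and -0.14 to 0.01 for Tgfbr2. The call of Tgfbr2 was also lost without Tconv replicate 3 (adjusted p = 0.0574), and 1 gene of the list was lower without that array or without Treg replicate 2.

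STAT factors bind the palindrome TTCNNNGAA, which reads the same on both strands. Of the higher genes, 3 carried it in their RefSeq promoter windows (build GRCm38.p6). These 3 receptor and STAT pathway genes are shown because they carried the motif, which is in capitals. The window of Il2ra, whose difference was larger (5.21), held 0 matches. The stretches are chr9:107296654-107296683 for Cish, chr1:40085967-40086011 for Il1r2 and chr1:40465779-40465870 for Il18r1, all on the plus strand.
Cish: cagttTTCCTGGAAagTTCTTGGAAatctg
Il1r2: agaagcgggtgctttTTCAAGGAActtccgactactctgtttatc
Il18r1: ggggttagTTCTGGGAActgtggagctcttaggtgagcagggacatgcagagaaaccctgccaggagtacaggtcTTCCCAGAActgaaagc
Cish had 2 copies that began 0 and 11 bases from the start of transcription, and Il18r1 had 2 copies in 1 of its windows, 219 and 152 bases before the start. Among the list genes with a promoter entry, 3 of 9 higher genes, 0 of 2 lower genes and 5 of 21 genes that were not called held the motif. It was present in 8.3% of 32851 promoters and for 9.55% of 27025 genes. These matches describe the letters of the windows only.

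Secreted molecules and ligands were higher in Treg for 10 of 31 measured members and lower for 1, and for 11 and 1 with the block. Gzmb, the cytotoxic protease granzyme B, measured 689, 418 and 503 in Treg, against 54.3, 42.8 and 52.4 in Tconv (3.40 ± 0.31). Ebi3, a subunit of IL-27 and IL-35, measured 198, 163 and 217 in Treg, against 37.5, 36.7 and 48.5 in Tconv (2.24 ± 0.19). Fgl2, a secreted suppressive fibrinogen-like protein, measured 132, 119.5 and 103 in Treg, against 25.9, 14.1 and 22.8 in Tconv (2.53 ± 0.29). Gzmb, Ebi3 and Fgl2 did not overlap between Treg and Tconv arrays. Il21, a cytokine of follicular helper cells, was the member that fell, at 41.5, 83.2 and 44.2 in Treg, against 213, 136 and 292 in Tconv (-1.93 ± 0.44, adjusted p = 0.0124), a call lost without Tconv replicate 3 (0.07) or Treg replicate 1. Il10, the suppressive cytokine of many tissue Treg, lay at 49.5, 47.8 and 46.6 in Treg, against 48.0, 42.2 and 41.3 in Tconv (0.13 ± 0.16, adjusted p = 0.824), so no difference was detected, at levels below the 65.9 of the dim filter.

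Maturation genes were called in both directions. Of 21 transcripts of immature and double-positive thymocytes 3 were higher and 3 lower, with a median of 0.18, and 4 and 3 with the block. The sort marker Il2ra was 1 of the higher genes, and without Il2ra and Cd8a 26.3% of the list was called (4.98% of all genes). Rag1, the recombinase that builds antigen receptor genes, measured 315, 169.8 and 48.4 in Treg, against 70.7, 198 and 43.1 in Tconv (0.70 ± 0.53, adjusted p = 0.642). The spread within each group exceeded the difference, and the pairs gave 2.16, -0.22 and 0.17. Myb, a factor of early thymocytes, rose, at 4465, 4392 and 2851 in Treg, against 1923, 2039 and 1412 in Tconv (1.11 ± 0.29, adjusted p = 0.0345). Kit, the stem cell factor receptor of the earliest stages, rose by 1.17 ± 0.22, although its other probe set gave -0.14. Cd8b1, which encodes the CD8 beta chain of double-positive cells, was lower at 77.0, 43.0 and 43.5 in Treg, against 156, 136 and 69.2 in Tconv (-1.11 ± 0.24), with Treg replicate 1 inside the range of Tconv. Cd8a, by which cells were depleted, lay at 71.8, 82.7 and 93.6 in Treg, against 76.7, 92.0 and 85.6 in Tconv, so all 6 arrays were near the dim level of 65.9. Themis, needed for positive selection, was lower (-0.97 ± 0.15), as was Ets2, a factor induced during selection (-0.88 ± 0.24). The fall of Themis was larger in Treg of lymph node (-1.96 ± 0.15) and fat (-2.93 ± 0.15), so it was not particular to the thymus.

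The counts of immature genes depended on single arrays. Without Treg replicate 3 there were 6 higher genes and 3 lower. Without Tconv replicate 1, Tconv replicate 2 or Treg replicate 2, 1 lower gene was left. Ets2 reached an adjusted p of 0.23 without Treg replicate 2, Cd8b1 0.0655 without Tconv replicate 1 and Myb 0.15 without Tconv replicate 3.

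Of 20 transcripts of newly made single-positive thymocytes 0 were higher and 2 lower (10.0% of the list), Tgfbr2 and Itm2a, an activation-linked membrane protein. With the replicate block 3 were higher and 4 lower. Ccr9, the receptor for the thymic chemokine CCL25, measured 362, 500.5 and 240.4 in Treg, against 1337, 2663 and 433 in Tconv. Each Treg array lay below its same-numbered Tconv array, with differences of -1.89, -2.41 and -0.85, although Treg replicate 2 was brighter than Tconv replicate 3. The difference of -1.72 ± 0.53 was not called without the block (adjusted p = 0.0763) and was called with it (adjusted p = 0.000348). Its other probe sets gave -2.36 to -0.68. Cd24a, a surface protein that thymocytes lose as they mature, lay the other way, at 2093, 3710 and 1099 in Treg, against 832, 1566 and 817 in Tconv. Its pairs gave 1.33, 1.24 and 0.43, and it was called with the block only (adjusted p = 0.386 without and 0.0204 with it). At an unadjusted p under 0.05, 3 genes of the list were higher and 5 lower (limma). Cd69, an early activation and retention marker, measured 1598, 1084 and 1374 in Treg, against 1872, 1651 and 1413 in Tconv (-0.29 ± 0.23, adjusted p = 0.665). Itm2a, lower in Treg (-0.89 ± 0.24), lost its call without Treg replicate 2 (adjusted p = 0.184), and 0 genes of the list were lower without that array and 1 without any single Tconv array.

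Mature thymocytes and cells about to leave were tracked with 24 measured genes, of which 1 was higher and 3 lower (16.7%), with a median of -0.22 and with 18 of 24 values below 0 (54.3% of all genes). With the block 4 were higher and 6 lower, and 2 were higher without Tconv replicate 1, Treg replicate 1 or Treg replicate 3. S1pr1, the receptor by which cells leave the thymus, measured 268, 358 and 512 in Treg, against 406, 469 and 551 in Tconv (-0.37 ± 0.19, adjusted p = 0.387). Klf2, the factor that induces it, measured 296, 173 and 325 in Treg, against 364, 234 and 287 in Tconv (-0.18 ± 0.34). Ccr7, which guides single-positive cells into the medulla, measured 792, 389 and 569.9 in Treg, against 1467, 955 and 702 in Tconv (-0.83 ± 0.36, adjusted p = 0.267). In S1pr1, Klf2 and Ccr7 the groups overlapped. The IL-7 receptor gene Il7r lay at 1824, 2276 and 2909 in Treg, against 2247, 1619 and 3477 in Tconv, with pairs of -0.30, 0.49 and -0.26.

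Ifngr1, the ligand-binding chain of the interferon-gamma receptor, was the one egress-list gene that rose, at 849.9, 694 and 766 in Treg, against 335, 351 and 283 in Tconv (1.25 ± 0.16). Gimap4 and Gimap6, small GTPases tied to lymphocyte survival, were lower (-0.70 ± 0.16 and -0.99 ± 0.21), as was Slfn1 of the Schlafen family (-1.07 ± 0.27). Slfn1 lost its call without Treg replicate 1 (adjusted p = 0.15) and Gimap4 without Treg replicate 2 (0.0576). Type I interferon targets, which mark late maturation, had a median of -0.13 and 1 of 25 called (Samhd1, higher by 2.01 ± 0.26), a share of 4.0% where all genes had 4.98%, and 2 were higher and 3 lower with the block. In the Bcl2 family, 2 of 13 genes rose, and 3 with the block. The 2 called without the block are of the death-promoting class. Pmaip1, which encodes Noxa, measured 518, 597 and 659 in Treg, against 105, 121 and 127 in Tconv (2.33 ± 0.21), and Bid rose by 1.17 ± 0.23. Bcl2 itself measured 3987, 4785 and 7595 in Treg, against 4263, 4650 and 4638 in Tconv (0.22 ± 0.34).

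**Figure D2:**
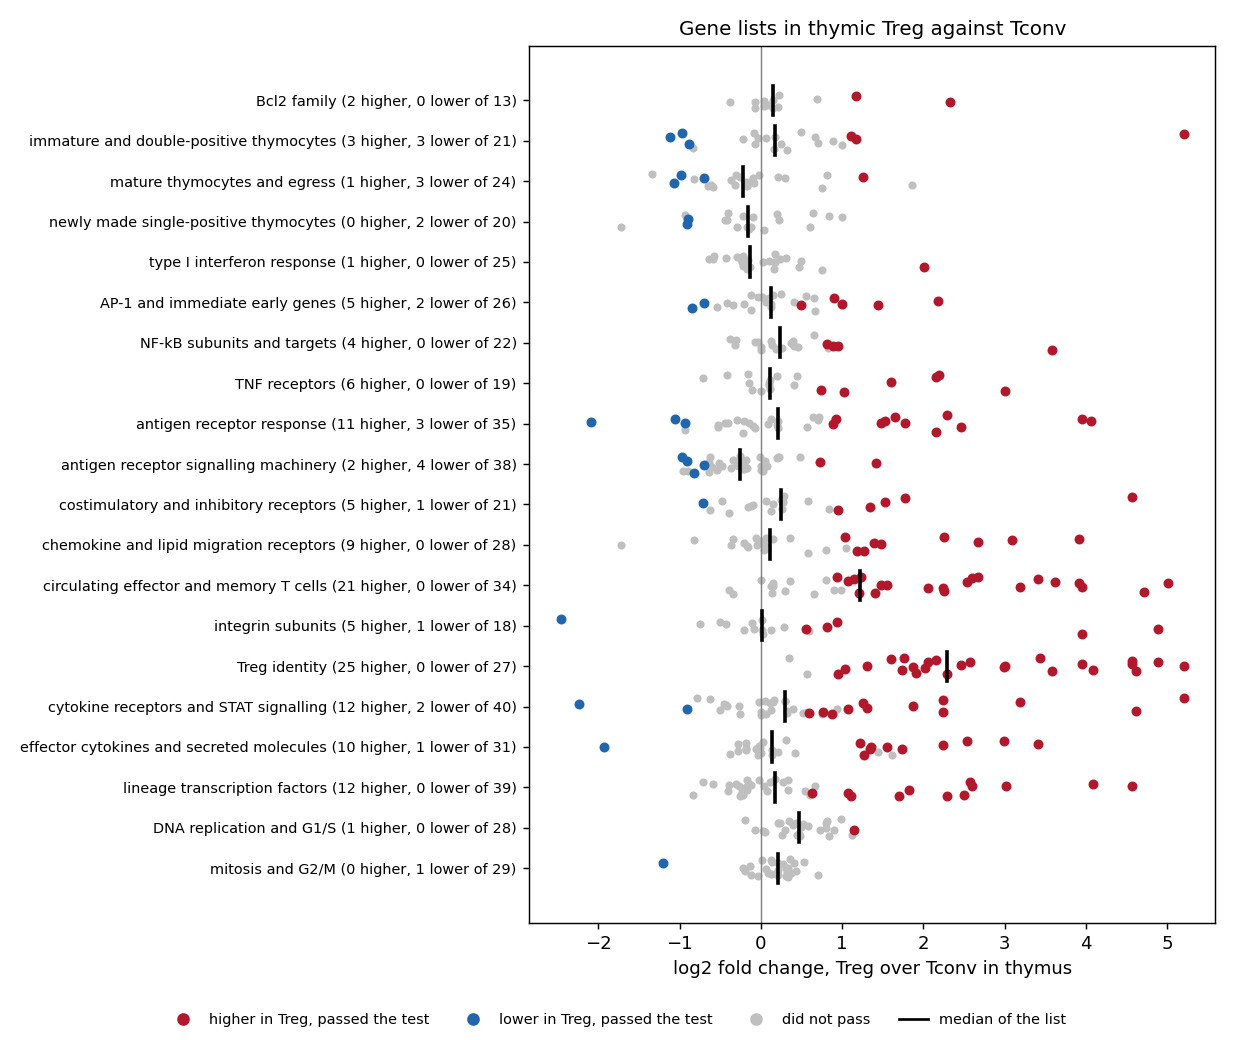
Log2 difference of Treg over Tconv in the thymus for each measured gene of the programme lists, 1 point a gene, with genes that passed the test in colour and a bar at the list median. The medians of Treg identity (2.30) and circulating effector and memory T cells (1.22) stand right of the others, and the maturation lists lie around 0.

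Activation genes changed in both directions. Of 35 genes induced by the antigen receptor, 11 were higher in Treg and 3 lower, with a median of 0.21, and 13 and 5 with the block. Inhibitors of signalling were among the highest. Rgs1, which shortens signals of chemokine receptors, measured 643, 303 and 614 in Treg, against 43.5, 20.5 and 28.5 in Tconv (4.07 ± 0.30). Dusp4, a phosphatase of MAP kinases, measured 1691, 1028 and 2021 in Treg, against 94.0, 94.4 and 106 in Tconv (3.95 ± 0.26). Rgs16, a relative of Rgs1, measured 318, 548 and 270.5 in Treg, against 55.2, 62.3 and 81.5 in Tconv (2.46 ± 0.40). Treg and Tconv arrays lay apart for all of these. Pdcd1, which encodes the inhibitory receptor PD-1, measured 251, 153 and 217 in Treg, against 71.4, 51.2 and 56.3 in Tconv (1.78 ± 0.34). The members that fell were Sgk1, Egr1 and Dusp6. Sgk1, a kinase below PI3K, measured 446, 317 and 280.2 in Treg, against 1866, 1064 and 1521 in Tconv (-2.08 ± 0.35). Egr1, an immediate early factor, measured 2512, 3151 and 3524 in Treg, against 5467, 6641 and 5385 in Tconv (-0.94 ± 0.19). Dusp6, an ERK phosphatase, measured 244, 265 and 316 in Treg, against 594, 593 and 519 in Tconv (-1.05 ± 0.22). For these 3 genes each Treg array lay below each Tconv array.

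Most other Egr and Nr4a members were not called without the block. Egr2 lay at 364, 519 and 644 in Treg, against 857, 1071 and 932 in Tconv (-0.94 ± 0.28), and was called with the block only (adjusted p = 0.0668 without and 0.0326 with it). Nr4a1, whose product Nur77 reports antigen receptor strength, measured 571, 360.2 and 376 in Treg, against 296, 270.2 and 254 in Tconv (0.64 ± 0.20), also called with the block only (adjusted p = 0.0885 without and 0.0139 with it). Its relative Nr4a3, named after its values were seen, was called, at 2141, 1183 and 3020 in Treg, against 718, 625 and 779 in Tconv (1.48 ± 0.32). Its other probe sets gave -0.18 to -0.11. The remaining Egr and Nr4a genes of the list, Egr3 and Nr4a2, also named after their values were seen, had differences of -0.53 ± 0.42 (adjusted p = 0.668) and 0.70 ± 0.24 (adjusted p = 0.12 without and 0.00575 with the block).

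Among AP-1 and immediate early genes 5 of 26 were higher and 2 lower, and 8 and 3 with the block. Jun, an AP-1 subunit, measured 92.5, 87.3 and 106 in Treg, against 18.3, 20.2 and 25.2 in Tconv (2.18 ± 0.38). Fosl2, another one, measured 112, 123 and 139 in Treg, against 41.9, 41.5 and 55.2 in Tconv (1.44 ± 0.25). Dusp1, a MAP kinase phosphatase, measured 310.1, 329.6 and 457 in Treg, against 179, 195 and 166 in Tconv (1.00 ± 0.22). Each Treg array exceeded each Tconv array in these 3 genes. The other probe set of Fosl2 gave -0.10. Zfp36, which destabilises cytokine messages, was lower (-0.70 ± 0.15), as was Btg2, an inhibitor of division (-0.84 ± 0.21), although the other probe set of Btg2 gave only -0.15. Leaving out Treg replicate 1 or 2 or Tconv replicate 2 or 3 left 1 of these 2 called. Btg2 reached an adjusted p of 0.125 without Treg replicate 2.

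NF-kB genes had 4 of 22 members higher and 0 lower, and 6 and 0 with the block. Cd83, an activation marker, measured 849, 358 and 664 in Treg, against 48.7, 41.8 and 57.6 in Tconv (3.58 ± 0.32). Nfkbie, an inhibitor of NF-kB, measured 151, 142 and 87.7 in Treg, against 58.1, 74.1 and 60.0 in Tconv (0.95 ± 0.19). The calls of Bcl3 (0.89 ± 0.23) and Icam1 (0.82 ± 0.23) were lost without Tconv replicate 1, with adjusted p of 0.167 and 0.177, and 2 genes of the list were also left without any 1 Treg array. Of 19 TNF receptors, 6 were higher and 0 lower, and 6 and 1 with the block. Tnfrsf4, which encodes OX40, measured 3545, 1742 and 2864 in Treg, against 344, 259 and 387 in Tconv (3.00 ± 0.26). Tnfrsf9, which encodes 4-1BB, measured 966, 510.0 and 804 in Treg, against 154, 158 and 184 in Tconv (2.15 ± 0.26). Tnfrsf1b, the TNF receptor TNFR2 of Treg, measured 711, 527 and 592 in Treg, against 119, 116 and 166 in Tconv (2.20 ± 0.26), with 0.03 on its other probe set. These costimulatory receptors did not overlap between Treg and Tconv arrays.

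Costimulatory and inhibitory receptors had 5 of 21 members higher and 1 lower, and 7 and 4 with the block. Cd86, a ligand of CD28 and CTLA-4, rose by 1.34 ± 0.21 and Cd200, an inhibitory ligand, by 1.53 ± 0.38. Cd28, the main costimulatory receptor of T cells, fell, at 1964, 2420 and 2977 in Treg, against 3811, 3908 and 4189 in Tconv (-0.71 ± 0.16). Its call was lost without Treg replicate 1 (adjusted p = 0.067), whereas 3 members were lower without Treg replicate 3. Cd200 lost its call without Tconv replicate 1 (0.122).

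Of the machinery that carries the antigen receptor signal, several members were lower. Of 38 genes 2 were higher and 4 lower, with a median of -0.25, and with the replicate block 3 were higher and 13 lower (5.41% of all genes lower). Cd4, a gene of the sort, was 1 of the 13, and without it and Ptprc 12 of 36 were lower with the block. Lat, the scaffold at which the signal branches, measured 1035, 1117 and 1057 in Treg, against 1522, 2143 and 2484 in Tconv (-0.91 ± 0.20). Pag1, an adaptor that holds back Src kinases, was lower (-0.83 ± 0.21), as was Prkcq, the kinase that links the receptor to NF-kB (-0.69 ± 0.18). The other probe sets of Pag1 gave only -0.41 to -0.05. The 2 that rose were ubiquitin ligases that limit activation, Cblb (0.72 ± 0.19) and Rnf128, also called GRAIL (1.41 ± 0.32). Rnf128 measured 33.8, 104.7 and 49.5 in Treg, against 19.6, 20.1 and 23.5 in Tconv. By log2 means it was dim in both groups, so its rise allows no firm statement. Cd3e and Cd247, subunits of the receptor complex that were named after their values were seen, were called with the block only, at -0.60 and -0.63 (adjusted p = 0.0255 and 0.0139 with it).

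These calls depended on single arrays. Of the machinery genes, 1 lower gene was left without Tconv replicate 2 or 3 and 6 without Treg replicate 3, and at most 1 higher gene was left without any single array. The highest adjusted p was 0.0634 for Lat (without Tconv replicate 3), 0.118 for Pag1 (without Treg replicate 1) and 0.163 for Prkcq (without Treg replicate 2). It was 0.16 for Cblb (without Tconv replicate 2) and 0.0642 for Rnf128 (without Treg replicate 2).

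Transcripts of circulating effector and memory cells include those by which recirculating Treg are known. Of 34 measured genes 21 were higher in Treg and 0 lower (3.21% and 1.77% of all genes). This list, too, was chosen with earlier results of these data known. With the block 23 were higher and 0 lower (6.5% and 5.41% of all genes). The list median was 1.22, and 1.29, 1.53 and 1.13 within pairs 1, 2 and 3. Without Treg replicate 3, 23 genes were higher. S100a6, a calcium-binding protein of memory cells, measured 1181, 1307 and 905 in Treg, against 33.1, 28.7 and 43.8 in Tconv (5.01 ± 0.34, adjusted p = 5.32e-08). Klrg1, an inhibitory receptor of effector cells, measured 1695, 2493 and 1993 in Treg, against 90.8, 77.2 and 67.2 in Tconv (4.71 ± 0.20, adjusted p = 3.44e-10). Every Treg array was at least 18.7-fold brighter than any Tconv array for both genes.

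Itgae, which encodes the E-cadherin-binding integrin CD103, measured 1232, 661 and 876 in Treg, against 50.9, 65.9 and 57.5 in Tconv (3.95 ± 0.22). S100a4, a relative of S100a6 that was named after its values were seen, measured 431, 434 and 242 in Treg, against 27.0, 29.7 and 30.5 in Tconv (3.62 ± 0.32). Cd44, the hyaluronan receptor of antigen-experienced cells, was higher with a smaller gap, at 2309, 2248 and 3083 in Treg, against 1264, 852 and 686 in Tconv (1.48 ± 0.18). It was bright in Tconv as well, and its other probe sets gave 0.17 to 1.20.

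Chemokine and lipid migration receptors were higher for 9 of 28 genes and lower for 0. Ccr6, the receptor of CCL20, measured 2099, 1185 and 1877 in Treg, against 114, 104 and 114 in Tconv (3.92 ± 0.23). Cxcr3, which guides T cells to inflamed tissue, measured 485, 418 and 522 in Treg, against 85.4, 87.8 and 131 in Tconv (2.25 ± 0.22). Cxcr6, a receptor of tissue-resident cells, measured 270.1, 374 and 325 in Treg, against 50.0, 41.0 and 62.4 in Tconv (2.67 ± 0.37). Groups were apart for these chemokine receptors. Ptger2, a receptor of prostaglandin E2, measured 279, 283 and 321 in Treg, against 27.9, 29.2 and 50.0 in Tconv (3.09 ± 0.36). All 4 receptors were apart between the groups by at least 3.18-fold. Of the 28 receptors, 9 were dim in both thymic groups. With the block 1 receptor was lower, Ccr9.

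Integrin subunits split. Of 18 genes 5 were higher, Itgb8 and Itgae in front and the integrin ligand Icam1 among them, and Itgb3, the beta chain of the vitronectin receptor, was lower at 250.5, 434 and 392 in Treg, against 1429, 1858 and 2693 in Tconv (-2.46 ± 0.20, adjusted p = 5.08e-07). The other probe set of Itgb3 gave -0.28. Itgb1 rose by 0.94 ± 0.17, with -0.14 to 0.44 on its other probe sets. Leaving out Tconv replicate 1 or 3 or Treg replicate 1 or 2 left 3 higher integrin genes, and 2 were lower without Treg replicate 1 or 3. With the block 4 were lower.

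Several of the genes that fell most belonged to no list. Lypd6b, of the Ly6 family, measured 59.2, 52.9 and 54.1 in Treg, against 317, 478 and 372 in Tconv (-2.79 ± 0.29). Tdrp measured 191, 191 and 361 in Treg, against 1192, 1460 and 1733 in Tconv (-2.61 ± 0.25). Cnga1, a subunit of a cyclic nucleotide-gated channel, measured 35.7, 53.3 and 40.4 in Treg, against 176, 244 and 354 in Tconv (-2.54 ± 0.22). All of these were dimmer in each Treg array. Pde3b, a phosphodiesterase that breaks down cyclic AMP, measured 527, 833 and 535 in Treg, against 2618, 3188 and 3218 in Tconv (-2.28 ± 0.24). For these 4 genes the brightest Treg array stayed under the dimmest Tconv array by at least 3.14-fold. Rflnb, a binding partner of filamin, was lower (-1.94 ± 0.23), as was Pxylp1, a phosphatase of proteoglycan synthesis (-2.04 ± 0.39). Vipr1, a receptor of vasoactive intestinal peptide, and Arhgap29 were lower too (-2.07 ± 0.25 and -2.07 ± 0.41). The other probe sets of Vipr1 and Arhgap29 gave -0.05 and -0.08 to 0.04.

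Genes of cell division differed in direction between the pairs. Of 28 DNA replication genes 1 was higher (Rfc3, 1.15 ± 0.28) and 0 were lower (4 and 0 with the block, 10 and 0 at an unadjusted limma p under 0.05), and the list median was 0.46. Within pairs 1, 2 and 3 the medians were 0.85, 1.14 and -0.51. The summed intensity of the list was 20850, 41560 and 42150 in Treg, from lowest to highest, and 21190, 25020 and 27240 in Tconv. Without Treg replicate 3, 17 of the 28 genes were higher and the median was 0.88, and the same number was called without both replicate 3 arrays (median 0.95, with 3.99% of all genes higher). Without Tconv replicate 1 or 2 or Treg replicate 1, 0 were called, and Rfc3 reached an adjusted p of 0.115.

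**Figure D3:**
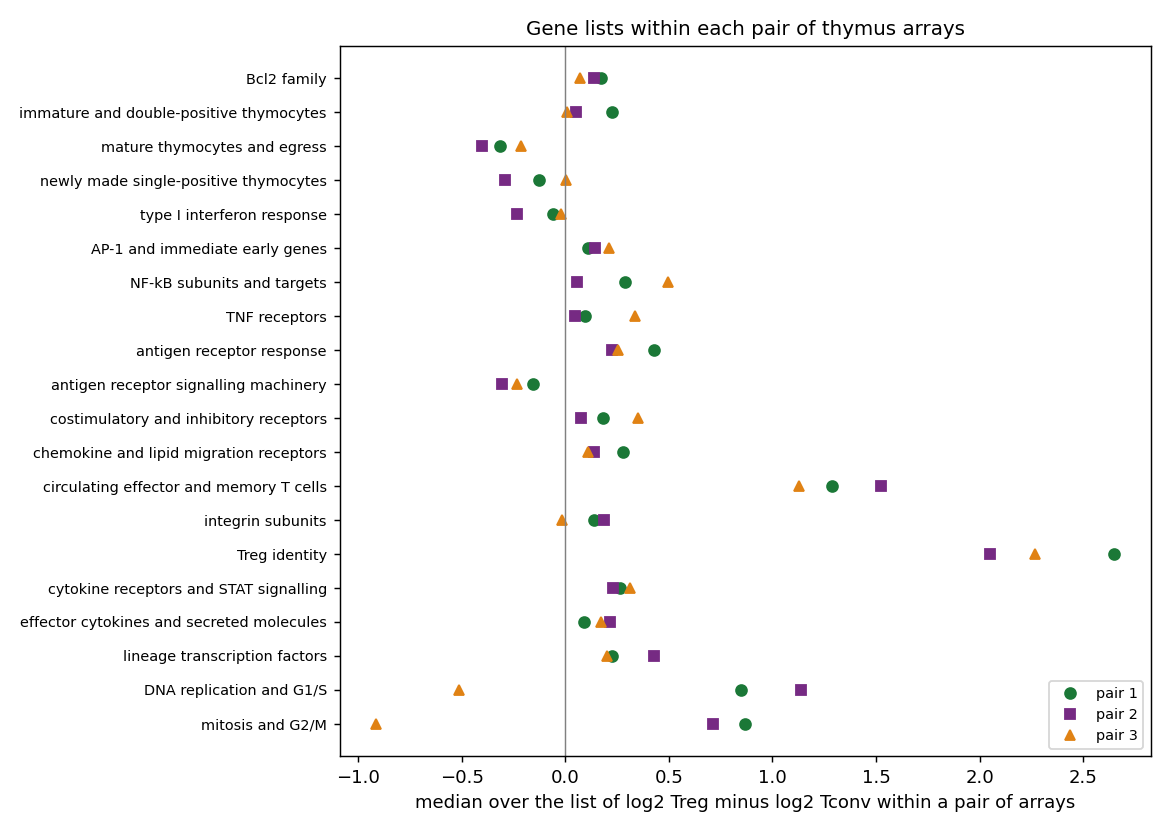
Median log2 difference of Treg minus Tconv within each of the 3 replicate pairs, 1 row per gene list, with a marker for each pair. The list of Treg identity lies at 2.65, 2.05 and 2.27 and that of circulating cells at 1.29, 1.53 and 1.13, while the 2 division lists lie above 0 in pairs 1 and 2 and below 0 in pair 3.

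Mitosis genes followed the same course, with medians of 0.87, 0.71 and -0.91 in the pairs, 0 of 29 higher and 1 lower (Kif23, -1.21 ± 0.25). Without Treg replicate 3, 3 were higher. Mki67, the Ki-67 proliferation marker, measured 2555, 2207 and 918 in Treg, against 1514, 1241 and 2138 in Tconv (0.12 ± 0.40, adjusted p = 0.949). Treg replicate 3 was the lowest of the 6 arrays for this gene, and Treg replicates 1 and 2 the highest. Dntt, the terminal transferase of immature thymocytes (named after its values were seen), was also lowest in Treg replicate 3. It measured 3290, 3355 and 457 in Treg, against 1634, 2218 and 705 in Tconv. Tconv replicate 3 was the second lowest array for Dntt, whereas for Mki67 it was the highest Tconv array.

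Of 14 macrophage markers and 10 dendritic cell markers 0 were called by limma, also at an unadjusted p under 0.05, with 8 and 3 of them dim in both groups. The summed level of the macrophage list was 4968 to 6719 in Treg and 4019 to 5760 in Tconv, and that of the dendritic cell list was 1410 to 1827 in Treg and 1365 to 1597 in Tconv. By single marker, 13 of the 14 macrophage values lay below 0 (54.3% of all genes), with a median of -0.22. B cell markers had 1 of 8 called (12.5%, against 4.98% of all genes), Cd79b (1.12 ± 0.26), lost without Treg replicate 1 (adjusted p = 0.0867) or Tconv replicate 1, with sums of 885 to 1022 in Treg and 851 to 950 in Tconv. Pax5 lay below the dim level in both groups. Thymic epithelial markers had 1 of 9 lower (11.1% called), Prss16 (-0.67 ± 0.18), lost without Treg replicate 2 (0.151), and Foxn1 was below the filter in all groups.

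Of 10 markers of NK, NKT and gamma-delta T cells, 2 were higher and 1 lower (30.0% called). Nkg7, a granule protein of cytotoxic cells, measured 455, 747 and 399 in Treg, against 134, 123 and 114 in Tconv (2.06 ± 0.21). Eomes was higher as given with the transcription factors. Klrd1, a lectin-like NK receptor, was lower (-1.50 ± 0.36), a call lost without Treg replicate 1 (adjusted p = 0.107). The list summed to 2304 to 7887 in Treg and 1568 to 2276 in Tconv. Gzma, which encodes granzyme A and was named after its values were seen, made up much of it, at 3734, 6269 and 1117 in Treg, against 1099, 803 and 1464 in Tconv (1.45 ± 0.49, adjusted p = 0.122). Klrk1 and Zbtb16, markers of NK and NKT cells, lay at 42.1 to 44.2 and 50.7 to 75.3 in Treg and at 44.2 to 46.1 and 55.6 to 68.1 in Tconv. These cells' part in the higher Gzmb, Nkg7, Eomes and Ccl5 of Treg was not tested. Of 5 red cell, mast cell and granulocyte markers 0 were called, with 1 at an unadjusted p under 0.05, and 1 was called with the block or without Treg replicate 3. Of 9 reference genes 0 were called by limma, also at an unadjusted p under 0.05, with a median of 0.08.

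Lymph node Treg and Tconv gave a second set of arrays in which to see which thymic differences recur. Of the 411 genes higher in thymic Treg, 224 were also called higher in lymph node Treg, which is 54.5% of the thymic list and 54.4% of the 412 genes of the lymph node list (3.21% of all genes). Of the 227 lower genes 76 were shared, 33.5% of the thymic list and 53.5% of the lymph node list (1.11% of all genes). The thymic difference itself departed from that in lymph node for 39 genes (0.304%), 20 upward (0.156%) and 19 downward (0.148%), and for 136 with the replicate block (1.06%). Tissue, strain, age and receptor transgene differ between the 2 sets and cannot be told apart. So most of the 186 higher and 151 lower genes called in thymus and not in lymph node were not shown to differ between the tissues: the difference passed for 11 and 3 of them.

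**Figure D4:**
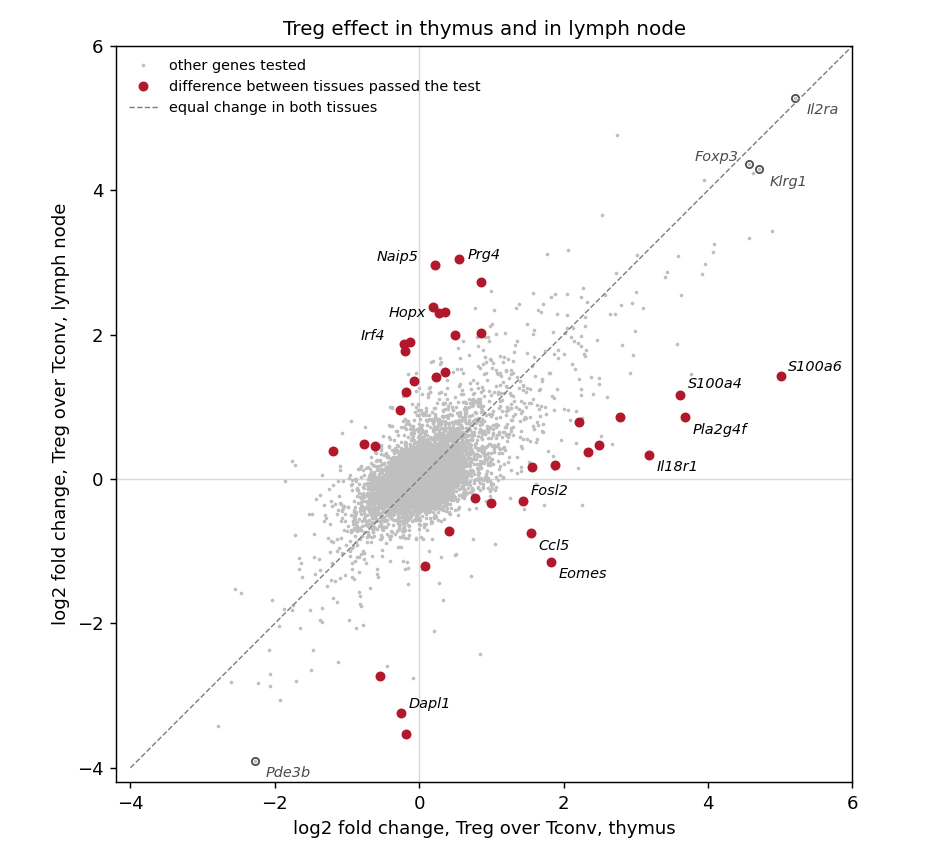
Log2 difference of Treg over Tconv in the thymus (horizontal) against the same difference in lymph node (vertical), 1 point per tested gene, with the 39 genes whose 2 differences departed from each other in colour. Foxp3 and Klrg1 lie near the diagonal, S100a6 and Il18r1 right of it and Prg4 and Naip5 left of it.

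Genes of circulating cells supplied several of the larger departures. S100a6 averaged 1131 in thymic Treg, 35.2 in thymic Tconv, 1052 in lymph node Treg and 342 in lymph node Tconv. Mean levels of Treg were within 1.08-fold of each other in the 2 tissues, although the lymph node Treg arrays ranged from 487 to 1777. Mean thymic Tconv lay 9.72-fold below lymph node Tconv, and the departure was 3.59 ± 0.48 (adjusted p = 0.00196). The same layout held for Il18r1, which averaged 964 in thymic Treg, 105 in thymic Tconv, 1015 in lymph node Treg and 779 in lymph node Tconv (2.84 ± 0.33, adjusted p = 0.000463). S100a4 averaged 369 in thymic Treg, 29.1 in thymic Tconv, 368 in lymph node Treg and 150.1 in lymph node Tconv (2.45 ± 0.46). Tconv of the thymus was 7.45-fold below that of lymph node for Il18r1 and 5.17-fold for S100a4, and mean levels of Treg differed by less. Klrg1 did not pass this test, at 2060 in thymic Treg, 78.4 in thymic Tconv, 2465 in lymph node Treg and 124 in lymph node Tconv (0.42 ± 0.28, adjusted p = 0.9999). In all, 4 of the 34 genes of circulating cells had a called departure (0.304% of all genes). Cxcr6 and Cxcr3 of this list departed with the block only (1.06% of all genes with it). Their adjusted p was 0.131 and 0.0637 without the block and 0.00192 and 0.0243 with it.

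Eomes was the one gene called in opposite directions. It averaged 223 in thymic Treg, 62.6 in thymic Tconv, 84.7 in lymph node Treg and 196 in lymph node Tconv (2.97 ± 0.41, adjusted p = 0.00232). Ccl5, a chemokine of memory cells, averaged 268 in thymic Treg, 90.3 in thymic Tconv, 222 in lymph node Treg and 364 in lymph node Tconv (2.30 ± 0.35). Fosl2 averaged 125 in thymic Treg, 46.2 in thymic Tconv, 126 in lymph node Treg and 156 in lymph node Tconv (1.74 ± 0.36). Pla2g4f, a phospholipase, was brightest in thymic Treg, at 118 in thymic Treg, 8.69 in thymic Tconv, 17.3 in lymph node Treg and 9.62 in lymph node Tconv (2.83 ± 0.36). Dapl1 (2.99 ± 0.60) and the transcript A530021J07Rik (3.36 ± 0.38) departed upward through lymph node Tconv, where they were higher than in lymph node Treg, and neither was called in the thymus.

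The largest departures downward were of genes called higher in lymph node Treg and not in thymic Treg, with Naip5, a sensor of bacterial flagellin, and Prg4, the lubricant proteoglycan 4, first. Naip5 averaged 24.9 in thymic Treg, 21.3 in thymic Tconv, 595 in lymph node Treg and 81.2 in lymph node Tconv (-2.75 ± 0.42, adjusted p = 0.00403). Prg4 averaged 34.8 in thymic Treg, 24.0 in thymic Tconv, 375 in lymph node Treg and 45.1 in lymph node Tconv (-2.51 ± 0.28, adjusted p = 0.000446), and in the thymus it was called with the block only (adjusted p = 0.0342). Irf4, the factor tied to effector Treg, averaged 459 in thymic Treg, 528 in thymic Tconv, 1032 in lymph node Treg and 286 in lymph node Tconv (-2.09 ± 0.36, adjusted p = 0.0126). Hopx, a homeodomain protein of effector cells, averaged 189 in thymic Treg, 158 in thymic Tconv, 1479 in lymph node Treg and 296 in lymph node Tconv (-2.03 ± 0.28). Lymph node Treg was the brightest of the 4 groups for each of them. Gsta4 (-2.20 ± 0.32) and Mtmr7 (-2.03 ± 0.34) departed the same way, Mtmr7 at 7.32 to 9.37 on all thymus arrays.

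Against fat, 793 genes departed (6.19%), and 1855 with the block (14.5%). Fat Treg and Tconv differ from those of the thymus in strain, age, sort and array scale as well as tissue, which cannot be told apart, and the arrays of fat had medians of 76.9 to 82.2, against 58.9 to 60.8 for the thymus. Of the 411 higher genes 153 were also higher in fat Treg (37.2% of the thymic list, 18.9% of the fat list; 6.32% of all genes), and 30 were lower there (5.19%). Ifng, the T helper 1 cytokine, averaged 81.0 in thymic Treg, 25.3 in thymic Tconv, 575 in fat Treg and 13810 in fat Tconv (6.64 ± 0.68, adjusted p = 5.65e-06). Cxcr3 averaged 475 in thymic Treg, 102 in thymic Tconv, 321 in fat Treg and 4994 in fat Tconv (6.26 ± 0.30). Nkg7 averaged 534 in thymic Treg, 124 in thymic Tconv, 505 in fat Treg and 5000 in fat Tconv (5.36 ± 0.29). Fat Tconv was the brightest group for all 3, while in the thymus Treg was above Tconv, as a call for Cxcr3 and Nkg7 and for Ifng with the block only (adjusted p = 0.0306).

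The departures downward against fat included genes that were bright in fat Treg. Il10 averaged 47.9 in thymic Treg, 43.9 in thymic Tconv, 6118 in fat Treg and 221 in fat Tconv (-4.67 ± 0.23, adjusted p = 1.49e-09). Cxcl3, a chemokine for neutrophils, averaged 6.27 in thymic Treg, 6.42 in thymic Tconv, 1924 in fat Treg and 12.9 in fat Tconv (-7.32 ± 0.26). Ccr9 averaged 368 in thymic Treg, 1478 in thymic Tconv, 1244 in fat Treg and 158 in fat Tconv (-4.61 ± 0.74, adjusted p = 0.000706), the reverse order of the 2 populations in the 2 tissues.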

How the data were processed

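The values deposited are linear intensity, 1 per probe set. Per the submitters' processing notes, the authors made them with RMA, which corrects background, quantile-normalizes and summarises probes, and which pulls arrays to one distribution; the version and the arrays normalized together are not given in the sources used here. Per the labels' protocols, RNA was amplified in 2 rounds.

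Of 45101 probe sets, 64 were controls, 34945 carried 1 gene symbol, 932 several and 9160 none. Each of 18193 genes was represented by its probe set with the highest mean over 18 arrays, and 12821 genes remained after dropping those whose 6 group means all lay at or under the median value (log2 6.04, intensity 65.9, here the dim level). The log2 values of the 18 arrays entered a limma 3.58.1 fit (R 4.3.3) with a coefficient for each group, lmFit and eBayes, which gave 12 residual and 4.83 prior degrees of freedom. Adjusted p-values are Benjamini-Hochberg over the 12821 genes. Contrasts were Treg against Tconv in thymus and that difference minus the one in lymph node or in fat. The code was tested on simulated data.

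The members, the 27 gene lists and the rule for named genes were chosen with earlier results of these data known. Named were the 12 largest called changes in each direction without overlap, the 4 largest called members of each list in each direction (2 for other cell types), 21 genes of prior interest, and the 6 largest called departures in each direction. Genes outside this rule are said to have been named after their values were seen. Cd8a, Pax5, Klrk1, Zbtb16 and Foxn1 were likewise added as markers afterwards. Of 595 listed genes 547 matched a probe set, 509 were tested and 48 were not analysed here. Other probe sets of named called genes numbered 82. All 46 above the dim level had the sign of the one used, as did 29 of 36 below it. Size could be far smaller, at -0.15 for Btg2 and -0.16 for Slfn1. It went down to 0.03 for Tnfrsf9 and 0.17 for Rgs16.

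Deviations from the group mean of same-numbered Treg and Tconv arrays correlated over genes in the thymus (r = 0.562, 0.415 and 0.432), in lymph node (0.678, 0.399 and 0.614) and in fat (0.505, 0.351 and 0.544). The numbers were therefore taken to pair the arrays. That is an inference from these same data, as the titles give a number only, and the main fit leaves the pairing out. Blocked values stand beside list counts and named thymic differences whose call they change, and beside only some departures between tissues. Arrays have no read depth; the number of arrays, 3 in each group, limits precision. Alternatives were other scalings, filters, probe set rules, the thymus arrays alone and leaving out arrays. Promoter windows are from RefSeq.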

Additional observations from a re-analysis of the deposited data

Results flagged for a closer look

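For 14 named genes the Treg against Tconv difference in thymus departed from that in lymph node by a test of the difference (limma interaction contrast). On the log2 scale the departure was 3.59 for S100a6, 3.36 for A530021J07Rik, 2.99 for Dapl1, 2.97 for Eomes and 2.84 for Il18r1. It was 2.83 for Pla2g4f, 2.30 for Ccl5 and 1.74 for Fosl2. Below 0 were Naip5 (-2.75), Prg4 (-2.51), Gsta4 (-2.20), Irf4 (-2.09), Mtmr7 (-2.03) and Hopx (-2.03). A530021J07Rik and Mtmr7 lay under 10 on all 6 thymus arrays. Dapl1, Gsta4, Naip5 and Prg4 also lay under the dim level in both thymic groups by their log2 means.

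Against fat, the 12 largest departures were 6.64 for Ifng, 6.26 for Cxcr3, 5.80 for Ccl5, 5.36 for Nkg7, 5.16 for Eomes and 5.02 for Esm1, and -7.32 for Cxcl3, -5.62 for AA467197, -4.84 for Hpgd, -4.67 for Il10, -4.61 for Ccr9 and -4.47 for Tmtc2. Esm1 was higher in thymic Treg, at 45.8, 152 and 28.3 in Treg, against 12.2, 8.62 and 17.4 in Tconv, with Treg replicate 2 well above the others. Both its group means, taken on the log2 scale, lay under the dim level. Cxcl3, AA467197, Hpgd and Tmtc2 overlapped between Treg and Tconv in the thymus, so these departures came with a difference in fat. Eomes and Ccl5 departed from both lymph node and fat.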

How the results depend on the processing

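The count of calls depended on the fit: 1528 genes (834 higher and 694 lower) were called with the replicate block, 383 (268 and 115) with only the thymus arrays, and with both of these choices, added after seeing the data, 1044 (435 lower). Leaving out 1 thymus array gave 437 to 976 calls, 299 to 641 higher and 138 to 335 lower. Departures from lymph node numbered 136 with the block, 24 with a filter on the thymus groups alone and 24 to 69 without 1 array, and those from fat 1855 with the block. Of 85 named called genes, 63 kept their call without each thymus array in turn, 61 under every other planned setting except the block, and 85 with the block, which ended no call and changed no call other than those given with it. None of the 85 changed sign under a setting that tested it. Among named genes that were not called, signs turned for Bcl2 (-0.028 without both replicate 3 arrays; -0.047 to 0.42 without 1 array), Il7r (0.10 without both replicate 3 arrays, 0.13 with the mean of probe sets, -0.28 to 0.27 without 1 array), Klf2 (-0.36 to 0.10) and Mki67 (-0.16 to 0.58). Apart from arrays left out, the cause was not tested. Genes under the dim level of 65.9 in both groups by their log2 means, such as Il10, Esm1 and Rnf128, allow no firm statement.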

Other observations

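Among named genes outside the lists, Pla2g4f, which encodes a cytosolic phospholipase, measured 151, 70.5 and 131 in Treg, against 8.37, 8.25 and 9.46 in Tconv in the thymus (3.69 ± 0.26). Esm1, a secreted proteoglycan of endothelium, was higher by 2.25 ± 0.42, with pair differences of 1.91, 4.14 and 0.70, but was dim in both groups. Plac8 and Igfbp4 of the egress list, singled out after their values were seen, had the largest values of that list that were called with the block only. Plac8 measured 1919, 2830 and 409 in Treg, against 422, 229 and 478 in Tconv (1.86 ± 0.53, adjusted p = 0.0537 without and 0.0255 with the block). Igfbp4 measured 1887, 3428 and 1389 in Treg, against 4748, 4283 and 7181 in Tconv (-1.34 ± 0.41, adjusted p = 0.0738 without and 0.0386 with the block). For Plac8 the third pair was negative, at -0.23, and Treg replicate 3 lay inside the range of Tconv.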
